A study of Mus musculus with 54 samples.

Results

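The transcriptome of bone marrow-derived macrophages (BMDMs) lacking N4bp1 was compared with that of wild-type (WT) BMDMs 2 h after addition of R837 (imiquimod), a small-molecule agonist of the endosomal receptor TLR7. The comparison rests on the 6 libraries that the labels give as N4bp1 knockout (KO) or WT BMDMs with R837 for 2 h, 3 of each genotype, out of 54 libraries in the series. The other libraries are untreated cells of both genotypes, cells given R837 for 4, 6 or 8 h, and cells given the TLR1/TLR2 agonist Pam3CSK4 (Pam3) for 2, 4, 6 or 8 h. The KO-WT difference is compared below with that in 3 of these conditions: untreated, Pam3 for 2 h and R837 for 4 h. All 54 libraries enter the fit, and WT cells given Pam3 for 8 h also enter a grouping of genes by response. WT mice were C57BL/6N, and the strain of the KO mice, the way N4bp1 was deleted and the R837 dose could not be taken from the labels. All cells were grown from marrow of femurs and tibiae in M-CSF, replated after 5 days and kept for 2 more, and the labels give 3 mice for each group.

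N4BP1 is a protein with an RNA-binding KH domain and a PIN-like RNase domain related to that of the Regnase RNases, and it restrains NF-kB-driven cytokine production in macrophages. It is known as a substrate of caspase-8, which cleaves it when TRIF or death receptor signalling is engaged. TLR7 and TLR1/TLR2 signal through the adaptor MyD88 without TRIF, so that this brake is thought to stay in place after R837 or Pam3. MyD88 activates the kinases IRAK4 and IRAK1, the ligase TRAF6, and from there the IkB kinases and MAP kinases, and NF-kB then induces cytokine, chemokine and feedback genes.

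To set regulatory sequence beside the cytokine and chemokine calls described below, the promoters of Cxcl3 and Il6, which passed the test, are shown. Those of Cxcl1 and Cxcl2, which lie in the chemokine cluster of Cxcl3 on chromosome 5 and did not pass, are shown with them. Each sequence runs 5′ to 3′ from 250 bases before to 50 bases after the gene's start in RefSeq (build GRCm38.p6, plus strand), and capitals mark matches on either strand to GGG, any 3 bases and TTCC, a form of the NF-kB site. The windows are chr5:90785851-90786150 for Cxcl3, chr5:90890995-90891294 for Cxcl1, chr5:90903649-90903948 for Cxcl2 and chr5:30012864-30013163 for Il6.
Cxcl3: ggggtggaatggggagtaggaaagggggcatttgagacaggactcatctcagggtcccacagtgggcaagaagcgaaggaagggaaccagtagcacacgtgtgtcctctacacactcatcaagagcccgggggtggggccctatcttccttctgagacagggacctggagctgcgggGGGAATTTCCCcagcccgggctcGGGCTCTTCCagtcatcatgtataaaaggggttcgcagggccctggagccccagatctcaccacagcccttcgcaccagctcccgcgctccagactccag
Cxcl1: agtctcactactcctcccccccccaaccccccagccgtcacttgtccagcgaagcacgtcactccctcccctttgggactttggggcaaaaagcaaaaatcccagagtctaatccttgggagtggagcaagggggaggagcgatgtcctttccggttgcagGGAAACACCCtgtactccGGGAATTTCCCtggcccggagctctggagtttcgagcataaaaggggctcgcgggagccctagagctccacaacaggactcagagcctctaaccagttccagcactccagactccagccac
Cxcl2: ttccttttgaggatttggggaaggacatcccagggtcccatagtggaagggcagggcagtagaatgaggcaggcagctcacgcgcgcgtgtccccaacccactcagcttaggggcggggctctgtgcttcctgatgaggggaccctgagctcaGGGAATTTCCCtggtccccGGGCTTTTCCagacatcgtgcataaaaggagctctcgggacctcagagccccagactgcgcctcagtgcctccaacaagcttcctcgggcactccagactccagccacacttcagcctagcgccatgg
Il6: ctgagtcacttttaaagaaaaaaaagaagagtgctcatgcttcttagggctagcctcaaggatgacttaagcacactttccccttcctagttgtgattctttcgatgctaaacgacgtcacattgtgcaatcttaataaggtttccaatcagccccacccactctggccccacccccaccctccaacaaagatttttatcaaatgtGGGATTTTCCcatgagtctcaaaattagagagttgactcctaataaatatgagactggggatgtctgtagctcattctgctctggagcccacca
All 3 Cxcl promoters held the letters GGGAATTTCC, which match on both strands in overlapping positions, beginning 73 bases before the start of Cxcl3, 71 before that of Cxcl1 and 97 before that of Cxcl2. Il6 held GGGATTTTCC from 44 to 35 bases before its start. A match was present in 5.56% of all 32851 promoters in the table and in 7.59% of the 10256 promoters of genes tested. It was present in 13 of the 177 promoters of genes higher in KO (7.34%) and in 8 of the 139 of genes lower in KO (5.76%). The share among genes higher in KO was close to that of all genes tested. Both shares of called genes rest on few matches, and a difference in share was not tested.

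The 6 libraries held 21148959 to 38781427 counts over exons, within the 20033154 to 45892308 of the whole series. Levels are given as CPM, which are counts divided by TMM-scaled library sizes, listed for replicates 1, 2 and 3 in that order. Differences are log2 of KO over WT ± a standard error derived from the test (n = 3 libraries per genotype). That error is the absolute log2 difference divided by the square root of edgeR's quasi-likelihood F statistic. Calls are genes with an adjusted p under 0.05 in edgeR's quasi-likelihood test over 14970 genes with Benjamini-Hochberg adjustment, and every adjusted p below is from that test unless another is named. The libraries differed in sex-linked RNA, given here as CPM before TMM scaling. The summed CPM of Y-linked genes was 178.7, 60.6 and 0.851 in WT replicates 1 to 3 and 0.554 to 1.13 in KO. Xist was at 26.8, 127.8 and 132 CPM in WT and at 187 to 213 CPM in KO. WT replicates 1 and 2 thus held both Y-linked RNA and Xist, and n counts libraries rather than single mice. Y-linked RNA above the KO range was found in WT alone, so sex-linked RNA partly followed genotype. Plasma cell markers summed to 198 to 270.8 CPM in KO and 125.8 to 160.2 CPM in WT. Igha was at 40.3 to 78.0 CPM in KO against 1.15 to 13.7 CPM in WT before TMM scaling, but was not called. Of 8 tested plasma cell markers 1 (Jchain) was called higher (12.5%, against 1.47% of all genes tested). The log2 difference was above 0 for 6 of the 8. All KO libraries lay above WT for 4 and below for 1, against 12.4% and 12.7% of all genes. Of 10 stromal and endothelial markers 3 were lower in KO (30.0%, against 1.22% of all genes), with a summed level of 51.1 to 62.3 CPM in WT and 29.3 to 41.2 CPM in KO. None of the neutrophil, monocyte, dendritic cell, B cell, T and NK cell or mast cell markers was called. Against 2.69% of all genes, lists this short would hold few or no calls. The 8 core macrophage markers summed to 21886 to 24911 CPM in WT and 18250 to 20474 CPM in KO, with 1 (Fcgr1) called lower (12.5%, against 1.22% of all genes). Of 7 osteoclast markers 1 (Mmp9) was higher (14.3%, against 1.47% of all genes). Of 4 tested megakaryocyte markers 1 (Pf4) was lower (25.0%, against 1.22%), and the 1 erythroid marker tested had no counts in the 6 libraries. The neutrophil markers summed to 196 to 230.3 CPM in WT and 138 to 180 CPM in KO, without overlap. The part of these other cell types in the results below was not tested. In bulk RNA, fewer cells of a type and less RNA per cell cannot be told apart.

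The WT libraries held 453, 413 and 446 CPM and the KO libraries 164, 143 and 162 CPM for N4bp1 itself, so its level was lower in all 3 KO libraries and the genotypes did not overlap. The difference was -1.48 ± 0.10 (adjusted p = 2.03e-14), or 0.358 times the WT level. The gene lies at chr8:86808160-86885258 on the minus strand (GRCm38, GENCODE M21), and reads over exons that a deletion leaves intact would still be counted. Of 40 tested genes whose start lies within 2 Mb of that of N4bp1, 0 were called by edgeR, against 2.69% of all genes. R837 raised N4bp1 itself in both genotypes: against untreated cells of the same genotype it was higher by 2.76 ± 0.11 in WT and by 2.11 ± 0.10 in KO.

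After 2 h of R837, 402 of 14970 genes (2.69%) differed between KO and WT, 220 higher (1.47%) and 182 lower (1.22%) in KO. Most differences were small: the median log2 difference was 0.55 among the genes called higher and -0.60 among those called lower, and 43 and 30 of them differed at least 2-fold. Which direction held more calls depended on the tool and the scaling, with 193 higher and 199 lower under DESeq2-style size factors in edgeR and 275 higher and 335 lower in DESeq2 itself. Over all genes tested, all 3 KO libraries lay above all 3 WT libraries for 12.4% and below them for 12.7%. Leaving out 1 library at a time lowered the count to between 196, without WT replicate 1, and 277, without KO replicate 3, with 245 without WT replicate 2, 231 without WT replicate 3, 216 without KO replicate 1 and 210 without KO replicate 2.

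**Figure D1:**
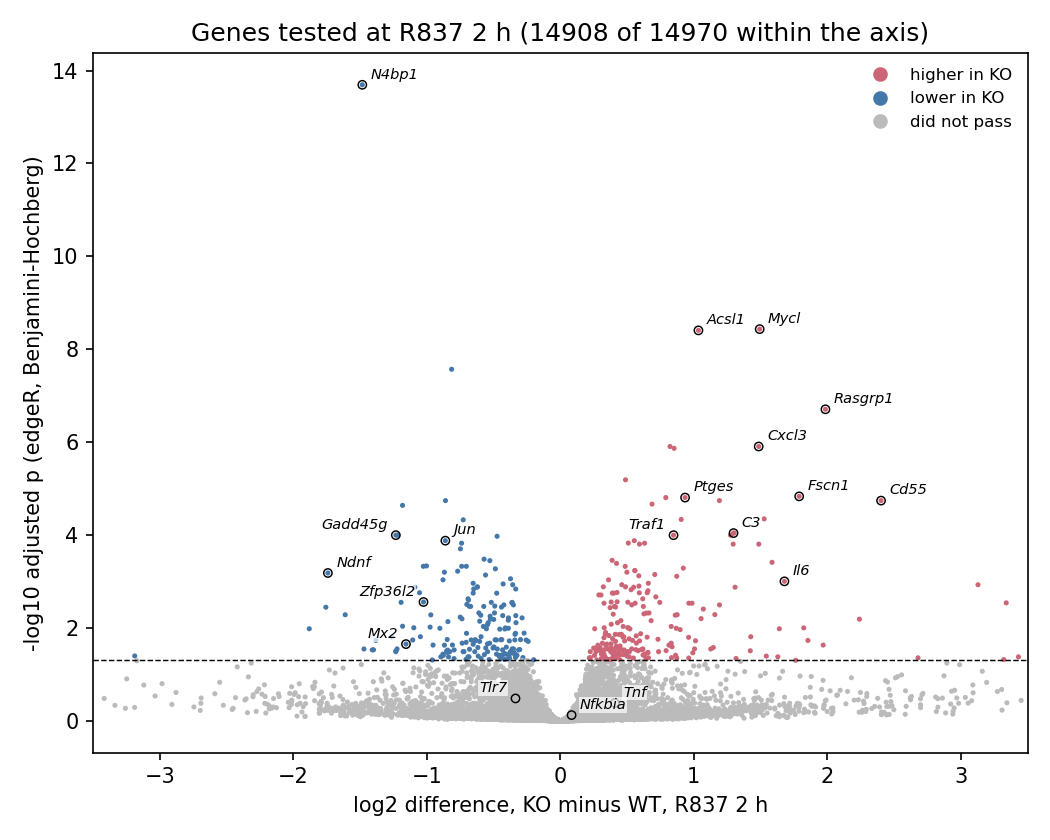
Each point is 1 gene, with the log2 difference between KO and WT at R837 2 h on the horizontal axis and -log10 of the edgeR adjusted p on the vertical axis; 14908 of the 14970 genes tested lie within the axis. The dashed line is adjusted p = 0.05, coloured points passed it, and N4bp1, Mycl and Acsl1 stand highest among the circled genes.

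Among cytokines, Il6, which encodes a pyrogenic and acute-phase cytokine, was the clearest increase. Il6 was at 7.58, 6.44 and 6.85 CPM in the WT libraries and at 20.4, 15.4 and 31.4 CPM in the KO libraries. The lowest KO library was above the highest WT library, and the KO libraries spread more among themselves than the WT libraries. The difference was 1.68 ± 0.31 (adjusted p = 0.000995). Tnfsf15, which encodes the TNF family ligand TL1A, was the only other of 24 cytokine genes called higher (2 in all, 8.33% against 1.47% of all genes), at 1.54 ± 0.43 (adjusted p = 0.0404), and none was called lower; its call was lost whichever 1 of the 6 libraries was left out, in voom and with the Y-linked share as a covariate (adjusted p up to 0.22, without WT replicate 2). The median over the list was 0.03, against -0.01 over all genes.

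The main macrophage cytokine Tnf was not among the calls. Tnf was at 796, 962 and 1089 CPM in the WT libraries and at 1231, 1238 and 1311 CPM in the KO libraries. All 3 KO libraries lay above the WT libraries, but the difference of 0.41 ± 0.21 (adjusted p = 0.414) did not pass. Il12b, the shared subunit of IL-12 and IL-23, had the same arrangement with a log2 difference of 0.80 (adjusted p = 0.317). Tnf and Il12b each passed with no filter on low counts and with only the groups compared. Il1b overlapped between genotypes at -0.16 (adjusted p = 0.901), as did Il1a at 0.02 (adjusted p = 0.995) and the anti-inflammatory Il10 at -0.04 (adjusted p = 0.974). Ifnb1 stayed at or below 1.07 CPM in every library.

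Cxcl3, a CXCR2 ligand that attracts neutrophils, was the only chemokine gene called higher. Cxcl3 was at 18.9, 24.8 and 26.4 CPM in the WT libraries and at 63.8, 60.5 and 71.5 CPM in the KO libraries. The groups were far apart relative to their spread, and the difference was 1.49 ± 0.19 (adjusted p = 1.24e-06). Cxcl1, Cxcl2 and Cxcl5 of the same cluster did not pass the test. Cxcl5 stayed at or below 0.431 CPM in every library. Its KO libraries all lay above WT, with a difference of 1.88 ± 0.64 (adjusted p = 0.111), and it passed in 1 alternative, without WT replicate 2. Cxcl1 was at 243, 269 and 343 CPM in the WT libraries and at 406, 401 and 431 CPM in the KO libraries. All its KO libraries lay above WT, with a difference of 0.53 ± 0.24 (adjusted p = 0.302). It passed with no filter on low counts and with only the groups compared. Cxcl2 was at 342, 386 and 439 CPM in the WT libraries and at 453, 438 and 456 CPM in the KO libraries, with overlapping groups and a difference of 0.21 ± 0.22 (adjusted p = 0.801). Of 21 chemokine genes 1 was called higher, Cxcl3 (4.76%, against 1.47% of all genes). All KO libraries lay above WT for 7 of the 21 and below for 6, against 12.4% and 12.7% of all genes. Among the 7 was Ccl3, at 0.40 ± 0.12 (adjusted p = 0.0613). Ccl3 passed in 6 of 15 alternatives, among them DESeq2 and the replicate block. The 1 gene called lower (4.76%, against 1.22% of all genes) was Pf4, a platelet and macrophage chemokine, at -0.42 ± 0.12 (adjusted p = 0.0353). Pf4 is also a megakaryocyte marker and lost its call under 5 of the 6 leave-one-out fits, all but that without KO replicate 2, and with library totals alone (adjusted p up to 0.164, without KO replicate 1).

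**Figure D2:**
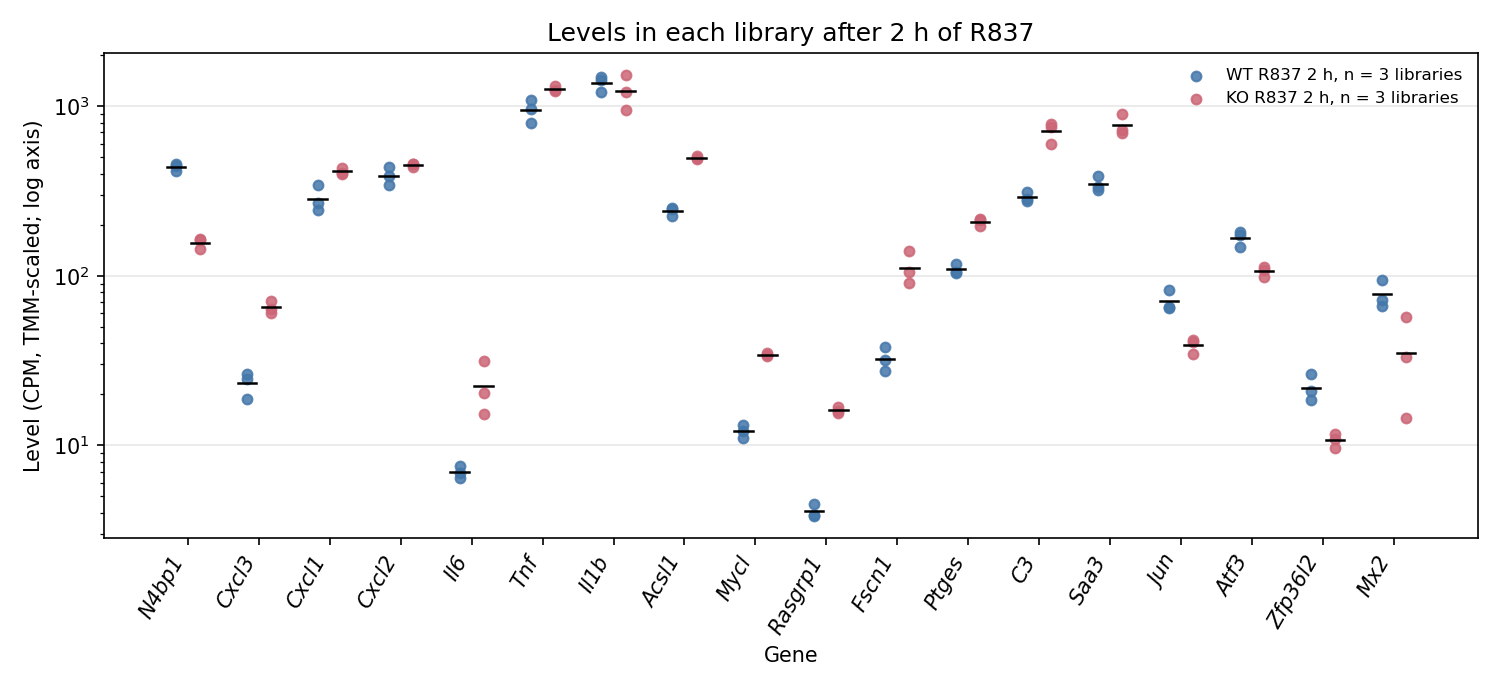
Level of 18 genes in each of the 6 libraries at R837 2 h, in CPM on a log axis; points are libraries, black bars are the means of 3. Il6, Cxcl3, Acsl1, Mycl, Rasgrp1, Fscn1, Ptges, C3 and Saa3 show KO libraries above all WT libraries. Tnf and Cxcl1, which did not pass the test, show the same. N4bp1, Jun, Atf3, Zfp36l2 and Mx2 show KO libraries below all WT libraries, and Il1b and Cxcl2 overlap.

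The signalling chain from TLR7 to NF-kB held few calls at the RNA level. None of 24 tested genes of the TLR7 pathway was called by edgeR, against 2.69% of all genes, with a median of -0.03. Tlr7 itself was at 247, 223 and 278 CPM in WT and 204, 185 and 204 CPM in KO and its adaptor Myd88 at 280.4, 262 and 289 CPM in WT and 260.1, 230.3 and 279.5 CPM in KO; all KO libraries were below WT for Tlr7, but its difference of -0.34 ± 0.16 (adjusted p = 0.33) did not pass. None of the 5 NF-kB subunit genes was called either, with Nfkb1 at 0.06, Nfkb2 at 0.13 and Relb at 0.00373. Of 17 genes of IkB kinases, TBK1 and their adaptors 2 rose (11.8%, against 1.47% of all genes), Birc2, which encodes the ubiquitin ligase cIAP1, and Tank, a TRAF-binding adaptor. Birc2 was at 52.7, 52.9 and 60.8 CPM in the WT libraries and at 88.5, 86.9 and 97.6 CPM in the KO libraries, a difference of 0.72 ± 0.15 (adjusted p = 0.00214). Tank was higher by 0.44 ± 0.11 (adjusted p = 0.0139), a call lost without WT replicate 1, WT replicate 2 or KO replicate 2 (adjusted p up to 0.103, without WT replicate 2). The kinase genes Chuk, Ikbkb, Ikbkg, Tbk1 and Ikbke had log2 differences of 0.05, 0.07, -0.000754, -0.14 and 0.08.

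Among feedback genes of NF-kB, Traf1 rose. Traf1 was at 164, 167 and 165 CPM in the WT libraries and at 312, 280.0 and 302 CPM in the KO libraries. Traf1 encodes an adaptor of TNF receptor family complexes, and its difference was 0.85 ± 0.14 (adjusted p = 0.000101) with no overlap between groups. It was the only one of 16 feedback genes called higher, and N4bp1 the only one called lower (6.25% each, against 1.47% and 1.22% of all genes). Nfkbia, which encodes IkBa, had a difference of 0.08 ± 0.08 (adjusted p = 0.754), and Tnfaip3, which encodes the deubiquitinase A20, one of 0.05 ± 0.13 (adjusted p = 0.942).

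Of the pathway lists, that of inflammatory effectors held the largest share of increases. Of 25 tested genes 9 were called higher (36.0%, against 1.47% of all genes), none was called lower, and the median was 0.38. Ptges encodes the inducible prostaglandin E synthase. Ptges was at 106, 117 and 104 CPM in the WT libraries and at 216, 196 and 213 CPM in the KO libraries, a difference of 0.93 ± 0.13 (adjusted p = 1.56e-05). Its upstream enzyme Ptgs2 (COX-2) was higher by 0.84 ± 0.22 (adjusted p = 0.0255). The complement component C3 showed a wide gap. C3 was at 313, 276 and 282 CPM in the WT libraries and at 757, 596 and 789 CPM in the KO libraries, a difference of 1.30 ± 0.20 (adjusted p = 9.1e-05). The complement factor B gene Cfb was higher by 1.42 ± 0.38 (adjusted p = 0.0311), and the acute-phase reactant Saa3 by 1.16 ± 0.25 (adjusted p = 0.00518). The pentraxin Ptx3, a soluble pattern recognition molecule, was higher by 1.97 ± 0.51 (adjusted p = 0.0235). Mmp9 and Mmp14, matrix metalloproteinases, were higher by 0.88 ± 0.19 and 0.83 ± 0.19, and Clec4e, the receptor Mincle, by 0.36 ± 0.10. The count of 9 depended on the libraries: it ranged from 3 to 8 with 1 left out, with 3 without WT replicate 1 and 4 without WT replicate 2 or KO replicate 3, and was 15 with no filter on low counts. Ptges, C3 and Saa3 kept their calls in every alternative and were the 3 left without WT replicate 1. Ptgs2, Cfb, Mmp14 and Clec4e thus lost theirs there, as did Mmp9 (adjusted p = 0.0689). Ptx3 lost its call without WT replicate 1, WT replicate 2 or KO replicate 3, in voom and with only these groups fitted (adjusted p up to 0.159).

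The remaining large increases were in genes of varied function. Mycl, a MYC family transcription factor, had the smallest p among the increases. Mycl was at 12.1, 13.2 and 11.1 CPM in the WT libraries and at 34.9, 33.8 and 33.96 CPM in the KO libraries, a difference of 1.49 ± 0.15 (adjusted p = 3.69e-09). Acsl1, which encodes an acyl-CoA synthetase that activates long-chain fatty acids, followed closely. Acsl1 was at 249, 252 and 225 CPM in the WT libraries and at 508, 486 and 493 CPM in the KO libraries, a difference of 1.03 ± 0.10 (adjusted p = 3.93e-09). For both, the spread within a genotype was small beside the gap between genotypes. The complement regulator Cd55 had the largest difference under the naming rule. Cd55 was at 1.74, 3.58 and 4.68 CPM in the WT libraries and at 15.2, 14.6 and 21.8 CPM in the KO libraries, a difference of 2.40 ± 0.34 (adjusted p = 1.82e-05). Rasgrp1, a guanine nucleotide exchange factor for RAS, was higher at 1.99 ± 0.23 (adjusted p = 1.97e-07), and the actin-bundling protein gene Fscn1 at 1.79 ± 0.25 (adjusted p = 1.47e-05). Lad1, Tmem26, Shisa3 and Slc13a3, the last a sodium-coupled dicarboxylate transporter, were higher by 1.59, 1.49, 1.31 and 1.30, all with KO libraries above WT. Adora2a, an adenosine receptor gene, was higher by 1.28 ± 0.20 (adjusted p = 0.000101). It was the only one of 12 prostaglandin and purine receptor genes called higher (8.33%, against 1.47% of all genes). Mab21l3 (1.64) and Gfi1 (1.43), a transcriptional repressor, were also called, but lost the call with single libraries left out: Mab21l3 without WT replicate 2, WT replicate 3 or KO replicate 3 (adjusted p up to 0.112), and Gfi1 without WT replicate 1, WT replicate 3, KO replicate 1 or KO replicate 3, and in voom (adjusted p up to 0.15).

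Of a list of 12 genes of mRNA decay and mRNA-binding factors 4 were lower in KO (33.3%, against 1.22% of all genes) and none was higher, with a median of -0.19. The 4 are the deleted gene N4bp1, Arid5a, whose product is known to stabilise mRNA, and the decay factor genes Zfp36l1 and Zfp36l2. Zfp36l2 and Zfp36l1 encode relatives of tristetraprolin, which bind AU-rich elements and promote mRNA decay. Zfp36l2 was at 18.6, 20.9 and 26.3 CPM in the WT libraries and at 10.9, 11.6 and 9.68 CPM in the KO libraries, a difference of -1.02 ± 0.21 (adjusted p = 0.00277), with the highest KO library below the lowest WT library. Zfp36l1 fell, at -0.73 ± 0.20 (adjusted p = 0.0325), as did Arid5a, which encodes a protein known to bind Il6 mRNA, at -0.71 ± 0.20 (adjusted p = 0.0475). The calls of Zfp36l1 (adjusted p up to 0.18, without KO replicate 3) and Arid5a (up to 0.281, without KO replicate 2) were lost whichever 1 of the 6 libraries was left out, that of Arid5a also with the Y-linked share as a covariate; Zfp36l2 and N4bp1 kept theirs in every alternative run.

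Of 24 immediate-early transcription factor genes 1 was higher (4.17%, against 1.47% of all genes) and 3 were lower (12.5%, against 1.22%). Jun, a subunit of AP-1, fell. Jun was at 64.8, 65.5 and 82.8 CPM in the WT libraries and at 40.97, 34.5 and 41.8 CPM in the KO libraries, a difference of -0.86 ± 0.14 (adjusted p = 0.000132). Atf3, a stress-induced repressor of cytokine genes, fell as well. Atf3 was at 182, 148 and 174 CPM in the WT libraries and at 108, 99.1 and 113 CPM in the KO libraries, a difference of -0.65 ± 0.13 (adjusted p = 0.00178). Ier5 was higher by 0.56 ± 0.12 (adjusted p = 0.00294) and Klf4 lower, at -0.83 ± 0.23 (adjusted p = 0.0325); Klf4 lost its call in 5 leave-one-out fits, all but that without WT replicate 1 (adjusted p up to 0.274, without WT replicate 2). Spry2, a feedback inhibitor of receptor tyrosine kinase signalling, was the only one of 16 MAP kinase feedback genes called (6.25%, against 2.69% of all genes), at -1.03 ± 0.18 (adjusted p = 0.000472).

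Among the 15 largest decreases were stromal and growth factor genes at low levels. Hbegf, an EGF receptor ligand, was at 10.2, 8.25 and 10.1 CPM in WT and 3.58, 2.91 and 2.87 CPM in KO, a difference of -1.61 ± 0.36 (adjusted p = 0.00521). Gadd45g, a stress-response gene, was at 38.2, 40.6 and 37.7 CPM in WT and 18.4, 19.1 and 12.1 CPM in KO, a difference of -1.23 ± 0.20 (adjusted p = 0.000101). The differences were -1.74 for Ndnf, -1.76 for Samd4, -1.18 for Arrdc3, an arrestin family member, and, for the transporter Slco2b1, -1.19, with KO libraries below WT for each. The iron exporter Slc40a1 and the sphingomyelinase Smpd3 were lower, at -1.23 and -1.23. Ccn2, Timp3 and Sparc, which encode matrix-associated proteins, were lower, at -1.88, -1.40 and -1.22, and the collagen genes Col1a1, Col1a2 and Col3a1 at -1.41, -1.22 and -1.26. The 3 collagen genes are the stromal markers named above, all at or below 12.9 CPM, and the part of stromal RNA in these decreases was not tested. Of the genes in this paragraph, Hbegf, Gadd45g, Ndnf, Samd4, Arrdc3, Slco2b1 and Col1a2 kept their calls in every alternative. With single libraries left out, the largest adjusted p was 0.275 for Slc40a1 (without WT replicate 3), 0.161 for Smpd3 (without WT replicate 2), 0.206 for Timp3 (without WT replicate 2), 0.165 for Sparc (without KO replicate 1), 0.148 for Col1a1 (without WT replicate 2), 0.0993 for Col3a1 (without KO replicate 1) and 0.0752 for Ccn2 (without KO replicate 2).

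Of 35 interferon-stimulated genes 1 was called, a share of 2.86% and close to the 2.69% of all genes. Mx2, which encodes an interferon-induced antiviral GTPase, fell. Mx2 was at 95.1, 65.9 and 71.8 CPM in the WT libraries and at 33.1, 14.6 and 57.02 CPM in the KO libraries. All KO libraries were below WT, the highest of them, replicate 3, lying close to the lowest WT library, and the difference was -1.16 ± 0.30 (adjusted p = 0.0223). The fitted log2 difference was above 0 for 3 of the 35 genes, and the median was -0.25 against -0.01 over all genes. All 3 KO libraries lay below WT for 9 of the 35, against 12.7% of all genes. Rsad2, Ifit1 and Ifit2, which encode antiviral effectors, had differences of -1.03 (adjusted p = 0.145), -0.85 (adjusted p = 0.129) and -1.06 (adjusted p = 0.109). KO replicate 3 stood near the WT libraries for these genes, with Ifit1 at 494, 272 and 327 CPM in WT and 177, 83.5 and 348 CPM in KO. The Mx2 call was lost without WT replicate 1, KO replicate 1 or KO replicate 2, and with only these groups fitted (adjusted p up to 0.325). In place of 1 call, voom made 4, DESeq2 3 and edgeR without KO replicate 3 made 5, and with no filter on low counts 13 of the 35 were called lower.

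Of 19 tested homeostatic macrophage genes 1 was higher (5.26%, against 1.47% of all genes) and 3 were lower (15.8%, against 1.22%). The median was -0.28, with 4 log2 differences above 0. All KO libraries lay below WT for 10 of the 19 genes, against 12.7% of all genes. Gas6, a bridging ligand for clearance of dead cells, was lower, at -0.49 ± 0.12 (adjusted p = 0.0181), as was the lysophospholipid receptor gene Gpr34, at -1.10 ± 0.26 (adjusted p = 0.00993). Cx3cr1, the fractalkine receptor gene, was higher by 0.86 ± 0.19 (adjusted p = 0.00533). Gas6, Gpr34 and Cx3cr1 lost their calls with single libraries left out: Gas6 without WT replicate 1, KO replicate 1 or KO replicate 2 (adjusted p up to 0.137), Gpr34 without WT replicate 1, WT replicate 3, KO replicate 1 or KO replicate 2 (up to 0.0731) and Cx3cr1 without WT replicate 1 (0.111). Of 12 LXR target genes 1 was called (8.33% higher, against 1.47% of all genes), while the list had a median of -0.20, 2 log2 differences above 0 and a summed level of 8276 to 10417 CPM in WT and 5999 to 7607 CPM in KO. The called gene, Nr1h3, which encodes LXRa, was higher by 0.75 ± 0.16 (adjusted p = 0.00282), a call lost without WT replicate 1 (adjusted p = 0.0594).

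Among cell cycle genes, 3 of replication licensing were higher. Mcm3, Mcm4 and Mcm5, subunits of the replicative helicase, rose by 0.53 ± 0.14 (adjusted p = 0.0283), 0.45 ± 0.13 (adjusted p = 0.0488) and 0.62 ± 0.16 (adjusted p = 0.0283). They were the 3 calls among 20 cell cycle genes, 15.0% against 1.47% of all genes called higher; the median was 0.47 with 19 of 20 log2 differences above 0. Without WT replicate 1, WT replicate 3, KO replicate 1 or KO replicate 2, 0 of the 20 passed in edgeR, against 7 with the Y-linked share as a covariate and 9 with no filter on low counts. Without KO replicate 3 there were 5.

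Of 29 genes of caspase-8 and cell death, 1 was called, a share of 3.45% and close to the 2.69% of all genes. It was Ticam1, which encodes the adaptor TRIF, at 0.39 ± 0.11 (adjusted p = 0.0457). That call was lost whichever 1 of the 6 libraries was left out (adjusted p up to 0.277, without WT replicate 1). It was also lost with DESeq2-style size factors and with the Y-linked share as a covariate. Casp8, whose product cleaves N4BP1, was at 89.9, 75.99 and 85.9 CPM in WT and 64.6, 66.7 and 71.7 CPM in KO; all KO libraries were below WT and the difference was -0.31 ± 0.13 (adjusted p = 0.229). The kinase genes Ripk1 and Ripk3 and the pore-forming Mlkl had differences of -0.16, 0.40 and 0.16, none of which passed. No gene passed in edgeR among 10 SOCS and cytokine receptor feedback genes, 20 cholesterol biosynthesis genes and 14 of MHC class II and co-stimulation. The same held for 17 genes of the unfolded protein response and 12 NRF2 targets. Against 2.69% of all genes, lists this short would hold few or no calls, so these counts do not show that the lists were unchanged. Slc16a3, a lactate exporter, was the only call among 16 glycolysis genes (6.25%, against 2.69% of all genes), at -0.79 ± 0.21 (adjusted p = 0.0298). Slc16a3 lost its call when 1 library other than KO replicate 1 was left out (adjusted p up to 0.208), and P2rx4, the 1 purine receptor gene called lower at -0.34 ± 0.10 (adjusted p = 0.0432), lost it whichever 1 of the 6 was left out (up to 0.219, without KO replicate 2).

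Genes were also grouped by their response in WT libraries other than these 6. Of 1087 genes induced in WT by R837 at 4 h by a log2 of at least 2, 51 were higher in KO at 2 h (4.69%, against 1.47% of all genes) and 11 were lower (1.01%). Of 663 genes repressed by a log2 of at least 2, 2 were higher (0.302%) and 15 lower (2.26%), with a median of -0.20. Of 500 genes that Pam3 induced late, with a log2 of at least 1 more at 8 h than at 2 h, 41 were higher (8.20%) and 2 lower (0.4%). Among these groups this was the largest share of increases, against 5 higher of 336 early genes (1.49%) and 12 higher of 345 sustained genes (3.48%). The 41 became 23 without WT replicate 1, 24 without KO replicate 3 and 28 to 38 without another library, and 77 with no filter on low counts. Cxcl3, Il6, Acsl1, Ptges, C3, Saa3 and Rasgrp1 belong to the late group, and Tnf, Cxcl1, Traf1 and N4bp1 to the sustained one. Y-linked sums before TMM scaling were 198.8, 78.4 and 0.839 CPM in untreated WT replicates 1 to 3. They were 163.7, 58.9 and 1.38 CPM at R837 4 h, and 65.7, 180.8 and 0.997 CPM at Pam3 2 h. Similar levels were found in WT at R837 2 h, with the numbers in another order under Pam3. The cultures behind the other libraries may thus come from the same mice, and the grouping may share biological material with the 6 libraries.

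**Figure D3:**
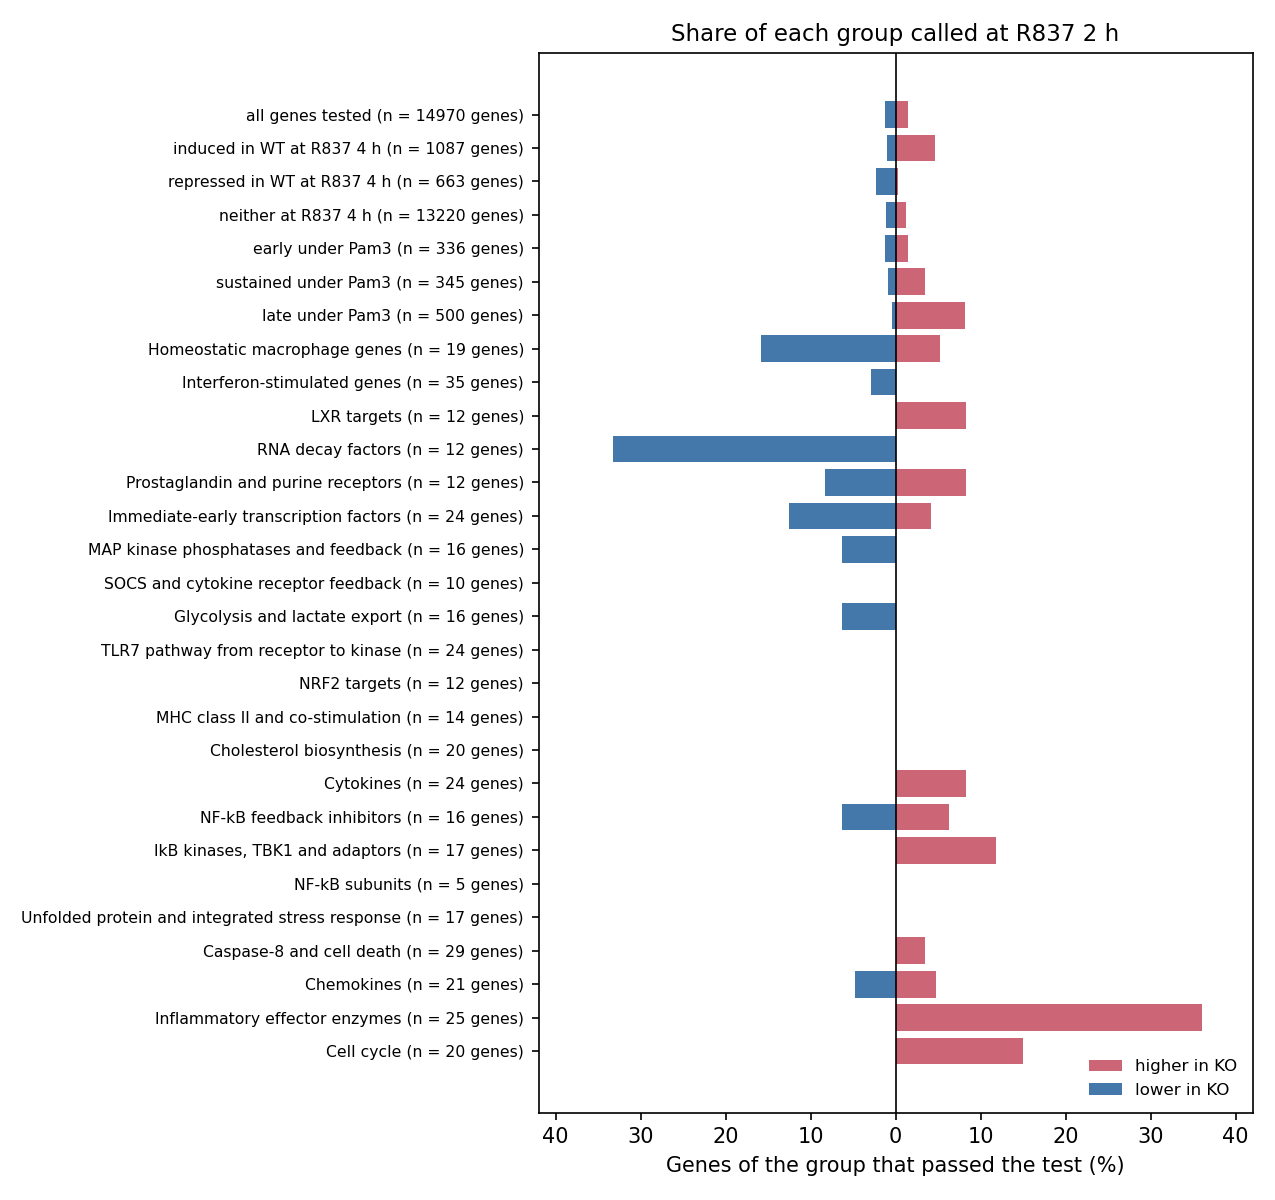
Percent of the tested genes of each group that were called higher (to the right) or lower (to the left) in KO at R837 2 h, for all 14970 genes, for groups by WT response in other libraries and for the pathway lists ordered by their median. Inflammatory effector enzymes stand out to the right at 36.0% and the list labelled RNA decay factors to the left at 33.3%, its 4 calls including N4bp1 and the mRNA-stabilising Arid5a, with bars of small lists resting on few genes.

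The same contrast was then set beside untreated cells. In untreated cells 132 genes (0.882%) were called between KO and WT. The difference between the 2 contrasts was called for 14 genes (0.0935%), 8 with a more positive and 6 with a more negative difference at R837 2 h. Some genes named above already differed in untreated cells: C3 at 1.45 (adjusted p = 2.39e-05), Cd55 at 2.38 (adjusted p = 0.00561) and Cx3cr1 at 1.29 (adjusted p = 3.02e-05). Gas6 was at -0.64 there (adjusted p = 0.00259) and Col1a2 at -1.16 (adjusted p = 0.000348). None of the shifts of these genes passed, so their differences were not particular to R837. For Acsl1 the KO-WT difference in untreated cells was 0.26 ± 0.10 (adjusted p = 0.345), and the shift from it to R837 2 h was 0.78 ± 0.15 (adjusted p = 0.00893). For Mycl it was 0.21 ± 0.19 (adjusted p = 0.829), with a shift of 1.28 ± 0.24 (adjusted p = 0.00893). Bmp1, which encodes a procollagen-processing metalloproteinase, was lower in KO when untreated (-1.21 ± 0.28, adjusted p = 0.0205) and higher at R837 2 h (1.07 ± 0.23, adjusted p = 0.00393), a shift of 2.29 ± 0.37 (adjusted p = 0.00228). Saa3 was far higher in KO when untreated (3.37 ± 0.28, adjusted p = 1.67e-10), so that the shift was -2.21 ± 0.36 (adjusted p = 0.00313). Map3k14, the gene of the NF-kB-inducing kinase NIK, was higher in untreated KO cells (1.19 ± 0.13, adjusted p = 2.83e-08) and did not pass at R837 2 h (0.15, adjusted p = 0.713). Several of these shifts rest on single libraries or tools: that of Acsl1 was lost without WT untreated replicate 2, KO untreated replicate 2 or WT R837 2 h replicate 3 (adjusted p up to 0.0688), that of Mycl without WT untreated replicate 3 or KO untreated replicate 2 and in voom (up to 0.324), that of Bmp1 in voom (0.373) and that of Saa3 with only the groups compared (0.31). The count of 14 was 6 without WT untreated replicate 2, 7 without WT untreated replicate 3, 5 without KO untreated replicate 2 and 9 without WT R837 2 h replicate 1 or 3. These contrasts use the same R837 2 h libraries.

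Against Pam3 at the same 2 h, 214 genes (1.43%) were called between KO and WT under Pam3, and the difference between the ligands was called for 1 gene (0.00668%), with 434 genes at an unadjusted p under 0.05. That gene, Il1f6, which encodes IL-36a, was singled out after its values were seen. Il1f6 was at 0.0285, 0 and 0.0926 CPM in the WT libraries and at 0.283, 0.433 and 0.316 CPM in the KO libraries, all under 1 CPM, a difference of 3.13 ± 0.60 (adjusted p = 0.00118), and the difference from Pam3 was 5.09 ± 0.92 (adjusted p = 0.0312). It was not called in voom, in DESeq2 or with only these groups fitted, nor without WT replicate 1, WT replicate 2 or KO replicate 2 at R837 2 h, or without replicate 1 or 2 of WT or replicate 2 or 3 of KO at Pam3 2 h. The KO-WT values under Pam3 at 2 h were 0.74 ± 0.19 (adjusted p = 0.0298) for Cxcl3, 1.14 ± 0.36 (adjusted p = 0.116) for Il6, 1.14 ± 0.15 (adjusted p = 1.64e-05) for Mycl and 0.74 ± 0.10 (adjusted p = 2.06e-05) for Acsl1, in each case smaller than at R837 2 h, and none of these 4 differences between ligands passed the test.

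At R837 4 h, 1563 genes (10.4%) were called between KO and WT. The difference between 2 h and 4 h was called for 108 genes (0.721%), 78 more positive at 2 h and 30 more negative; with library totals alone as scaling the split was 61 and 63. Cxcl3 was among the 30, with a KO-WT difference at 4 h of 2.81 ± 0.19 (adjusted p = 2.67e-14) and a shift of -1.32 ± 0.26 (adjusted p = 0.00575). Mlkl, at 0.16 at 2 h, was lower in KO at 4 h (-0.84 ± 0.15, adjusted p = 5.57e-05), a shift of 1.00 ± 0.21 (adjusted p = 0.0104) that was lost without KO R837 4 h replicate 2 (adjusted p = 0.0759). Casp8 was also lower in KO at 4 h (-0.92 ± 0.13, adjusted p = 6.22e-07), and the difference from 2 h, 0.61 ± 0.18 (adjusted p = 0.107), did not pass. The count of 108 ran from 26, without KO R837 4 h replicate 2, to 198, without KO R837 4 h replicate 3, and was 40 without WT R837 2 h replicate 2, 49 without KO R837 2 h replicate 3, 46 without WT R837 4 h replicate 1, 51 without WT R837 4 h replicate 2 and 47 without KO R837 4 h replicate 1.

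**Figure D4:**
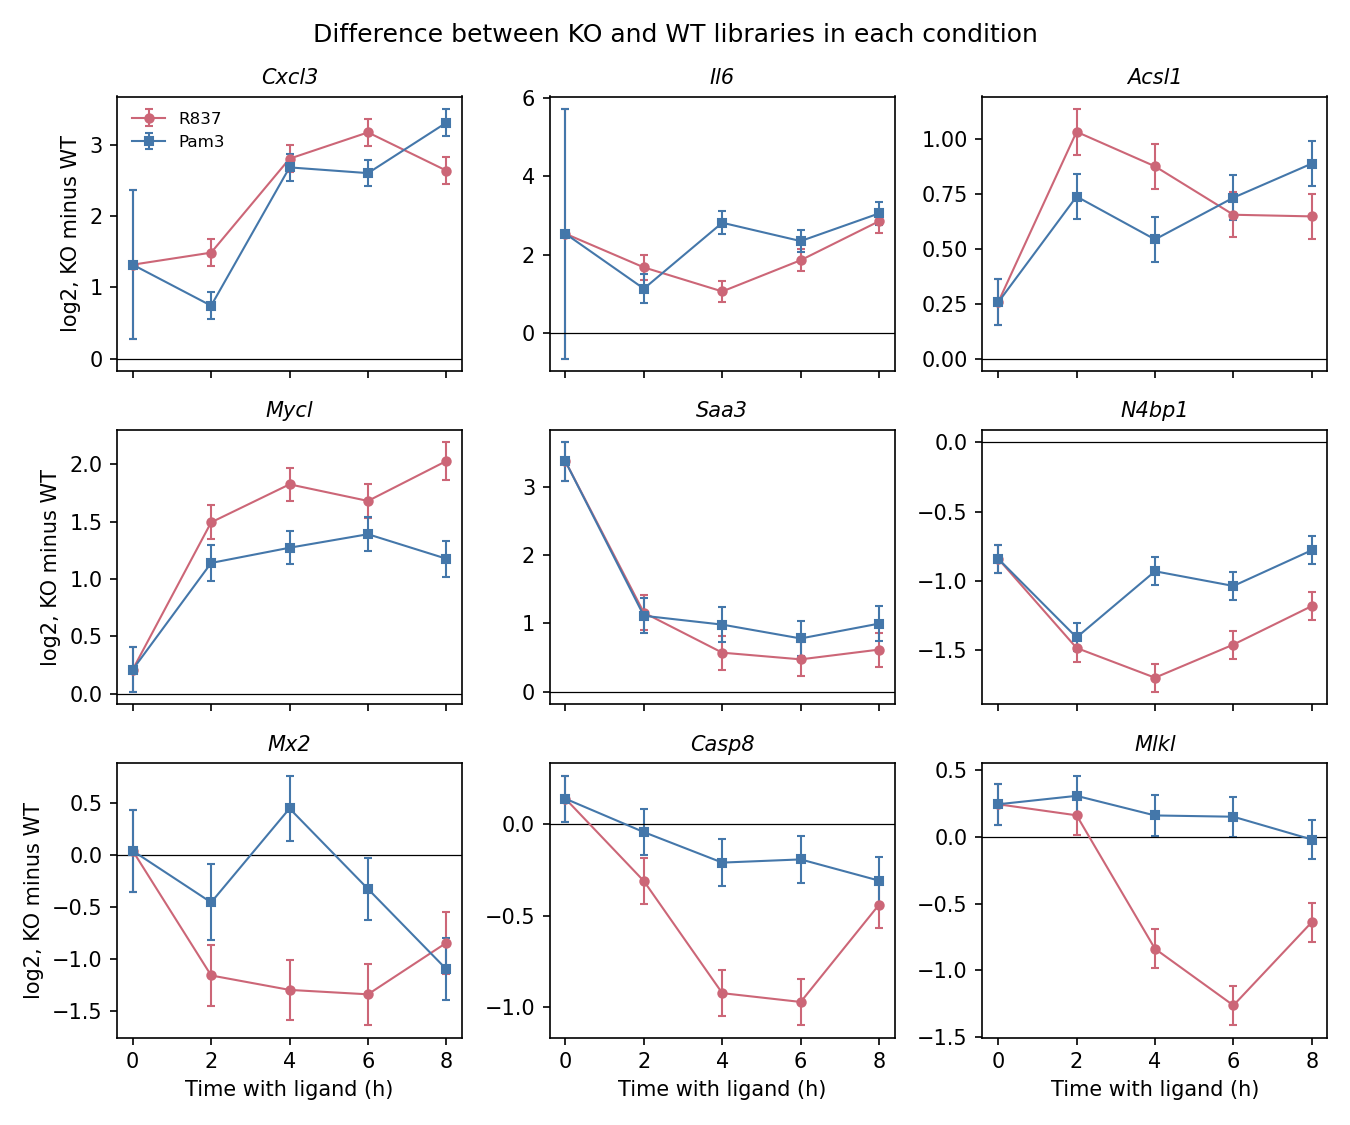
Log2 difference between KO and WT libraries (n = 3 each) ± standard error for 9 genes, untreated (0 h) and after 2, 4, 6 and 8 h of R837 (circles) or Pam3 (squares); the untreated point is shared by both lines, and Il6 and Cxcl3 were near 0 CPM there. At R837 2 h Cxcl3 is at 1.49 and Mlkl at 0.16, against 2.81 and -0.84 at R837 4 h.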

How the data were processed

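RNA was measured by sequencing of TruSeq libraries as single-end reads, per the labels' protocols, and aligned with GSNAP to GRCm38, per the submitters' processing notes; versions and strand setting are not stated there. The authors deposited whole-number counts over exons, not normalized, per library for 52636 Ensembl genes, and RPKM values that the authors derived from them; the counts were used and the RPKM values were not. Symbols came from GENCODE M21 (52489 identifiers matched). Counts were filtered with filterByExpr (minimum count 10, minimum total 15), scaled by TMM and fitted with edgeR 4.0.16 in R 4.3.3 by robust quasi-likelihood, with 1 coefficient per group over 54 libraries in 18 groups. Contrasts were KO minus WT at R837 2 h, and that difference minus the same at untreated, Pam3 2 h and R837 4 h. The scripts were tested on simulated counts. Alternatives were other scaling and filters, limma 3.58.1 (voom), DESeq2 1.42.0, a replicate block, a Y-linked covariate, only the groups compared and leaving out each library.

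Named genes were N4bp1, the 15 largest called increases and decreases with at least 5 CPM and no overlap between genotypes, up to 4 genes per list by p, 5 per difference between conditions, and a set of cytokine, NF-kB and cell death genes; others are named as chosen after their values were seen or complete a count, and some results are not reported here. The genes and lists were chosen with earlier results of these data known. Same-numbered WT and KO libraries at R837 2 h had correlations of their deviations of 0.028, 0.072 and 0.038, so the numbers were not taken as pairs. Between R837 2 h and untreated, same-numbered libraries had correlations of 0.182, 0.066 and 0.286 in WT and 0.040, 0.125 and 0.111 in KO. The main fit took all 54 libraries as independent, also for the shifts between conditions. Libraries of 1 culture in different conditions would not be separate replicates. No 2 replicates agreed within sampling noise (chi-square per degree of freedom 12.3 to 36.9). Where separate mice are not shown, p-values measure the spread between these libraries only.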

Additional observations from a re-analysis of the deposited data

Results flagged for a closer look

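For 14 results the test of the difference between conditions passed, so that the KO-WT difference at R837 2 h was not the same as in another condition; values are log2 differences of the 2 contrasts with edgeR's adjusted p.

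Relative to untreated cells, the KO-WT difference at R837 2 h was more positive for Bmp1 by 2.29 ± 0.37 (adjusted p = 0.00228), for Mycl by 1.28 ± 0.24 (adjusted p = 0.00893), for Ppfibp2, a liprin family gene, by 0.83 ± 0.15 (adjusted p = 0.0055) and for Acsl1 by 0.78 ± 0.15 (adjusted p = 0.00893). It was more negative for Saa3, with -2.21 ± 0.36 (adjusted p = 0.00313), for Map3k14, with -1.03 ± 0.18 (adjusted p = 0.00487), and for N4bp1 itself, with -0.64 ± 0.14 (adjusted p = 0.0459). The call of N4bp1 was lost in 14 of the alternatives, among them each leave-one-out fit at R837 2 h (adjusted p up to 0.196).

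Relative to R837 4 h, it was more positive for Aldh1b1, a mitochondrial aldehyde dehydrogenase gene, by 1.62 ± 0.25 (adjusted p = 0.000372), for Ogfrl1 by 1.11 ± 0.18 (adjusted p = 0.000901), for the necroptosis effector gene Mlkl by 1.00 ± 0.21 (adjusted p = 0.0104), for Plekha2 by 0.92 ± 0.14 (adjusted p = 0.000372) and for Wdr43, a nucleolar protein gene, by 0.84 ± 0.13 (adjusted p = 0.000372). It was more negative for Cxcl3, with -1.32 ± 0.26 (adjusted p = 0.00575), and for the oxysterol-binding protein gene Osbpl3, with -0.99 ± 0.15 (adjusted p = 0.000372). At R837 2 h itself, the KO-WT differences that did not pass were those of Osbpl3 (0.19), Plekha2 (-0.18), Ogfrl1 (-0.08), Aldh1b1 (-0.14), Mlkl (0.16) and Wdr43 (0.27).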

How the results depend on the processing

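The count of 402 genes at R837 2 h became 636 with no filter on low counts, 610 in DESeq2, 636 with the Y-linked share as a covariate and 713 with only the groups compared, and 196 to 277 with 1 library left out; the stricter filter, other scaling and voom moved it by less than 1.5 times. The 14 genes that differed from untreated became 78 with no filter, 33 in DESeq2, 22 with the replicate block, 24 with the replicate block within genotype and 5 to 13 with 1 library left out. The 1 gene that differed from Pam3 2 h became 54 with no filter and 0 in voom, in DESeq2, with the replicate block within genotype and with only the groups compared, with 394, 470, 495 and 690 genes at an unadjusted p under 0.05, and 0 to 3 with 1 library left out. The 108 genes that differed from R837 4 h became 358 with no filter, 191 in DESeq2 and 26 to 198 with 1 library left out. No called value among the named genes changed sign; some that did not pass changed sign in at least 1 alternative, such as Ifnb1 (-1.19 to 0.49) and Il1a (-0.13 to 0.19). The cause of these moves was not tested. The replicate block gave 459 calls at R837 2 h, 400 of them among the 402, and 127 for the difference from R837 4 h. It follows replicate numbers, over which the Y-linked sums of WT stood in another order under Pam3. The block may thus not join libraries of 1 culture, and it cannot show what shared cultures would change. The 636 calls with no filter, over 27757 genes, shared 296 with the 402.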

Other observations

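Groups of genes outside the comparisons above also moved at R837 2 h; they were grouped by symbol after their values were seen, so they are described without a test of the group. Of 27 tested genes with symbols of the form Nop, Nol or Utp plus a number, most of which encode nucleolar factors of ribosome assembly, 10 were higher in KO and none lower (37.0% called, against 2.69% of all genes), and 25 had a log2 difference above 0. Nop58 was at 39.5, 39.9 and 38.6 CPM in the WT libraries and at 64.1, 61.9 and 64.2 CPM in the KO libraries, a difference of 0.69 ± 0.10 (adjusted p = 2.16e-05). Nop2, an rRNA methyltransferase gene, was higher by 0.55 ± 0.09 (adjusted p = 0.000132) and Nop16 by 0.59 ± 0.11 (adjusted p = 0.00126). Of 10 tested genes of the MYC and MAX network 1 was higher, Mycl, and 3 were lower (40.0% called, against 2.69% of all genes). The 3 encode MAX-binding MYC antagonists: Mxi1 at -0.86 ± 0.13 (adjusted p = 1.82e-05), Mxd4 at -0.57 ± 0.12 (adjusted p = 0.00345) and Mxd1 at -0.68 ± 0.18 (adjusted p = 0.0288). Myc itself did not pass (log2 difference -0.10, adjusted p = 0.892), nor did Max, Mga, Mlx, Mnt and Mxd3.

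Of 28 autophagy genes 4 were lower in KO (14.3%, against 1.22% of all genes) and none higher, with a log2 difference above 0 for 4 of them. Ulk1, the kinase that starts autophagy, was lower, at -0.52 ± 0.12 (adjusted p = 0.00649), as were the phosphoinositide-binding Wipi1, at -0.49 ± 0.11 (adjusted p = 0.00477), and the ATG8 family genes Map1lc3b and Gabarapl1, at -0.42 ± 0.10 and -0.34 ± 0.09. Of 5 genes of receptors for IgG 4 were lower (80.0%, against 1.22% of all genes), Fcgr1, Fcgr3, Fcgr4 and Fcgrt. Fcgr3 was at 1012, 869.7 and 996 CPM in the WT libraries and at 614, 543 and 729 CPM in the KO libraries, a difference of -0.61 ± 0.13 (adjusted p = 0.00477). Txnip, a regulator of redox state and glucose uptake, had the smallest p among the decreases after N4bp1. Txnip was at 169, 140.3 and 155 CPM in the WT libraries and at 89.1, 78.97 and 95.8 CPM in the KO libraries, a difference of -0.81 ± 0.09 (adjusted p = 2.7e-08). Vcam1, an adhesion molecule for leukocytes, was higher in KO. Vcam1 was at 95.2, 96.7 and 116 CPM in the WT libraries and at 203, 211 and 291 CPM in the KO libraries, a difference of 1.19 ± 0.17 (adjusted p = 1.82e-05).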
